A study of Homo sapiens with 8 samples.

Results

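The tetraspanins described here are 9 genes, CD9, CD37, CD53, CD63, CD81, CD82, CD151, TSPAN3 and TSPAN14, taken by symbol from the 25593 gene rows of the study's expression table, where each has 1 row. They were chosen by measured values, because CD82 showed the largest rise among named genes in drug-treated Kasumi-1 cells, so values of that comparison are given as a description with no test. RNA sequencing compared 2 established human acute myeloid leukaemia lines. HL60, a promyelocytic line with an amplified MYC gene, was grown in RPMI-1640 with 10% fetal bovine serum. Kasumi-1, a myeloblastic line with the RUNX1-RUNX1T1 fusion, was grown in the same medium with 20%, so line and serum cannot be told apart. Each line was cultured for 24 h with 100 nM cinobufagin, a cardiotonic steroid from toads that inhibits the sodium pump, or without drug, which gives 4 groups of 2 libraries. The labels name no vehicle for the untreated cells, and whether the libraries of each group are separate cultures is not stated, so a p-value here reflects just the spread of these libraries, which may be technical.

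Tetraspanins are small membrane proteins that cross the membrane repeatedly and gather integrins, immunoglobulin-like proteins, proteases and one another into patches called tetraspanin-enriched microdomains. In blood cells they are known for roles in adhesion, migration, receptor signalling and the sorting of cargo into exosomes, the small vesicles released from endosomes. CD37 and CD53 are largely restricted to leukocytes, CD63 cycles through lysosomes and granules, CD9, CD63 and CD81 are widely used as exosome markers, and CD82, also called KAI1, is known as a suppressor of metastasis.

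Levels are FPKM, fragment numbers per length of transcript and relative to all fragments mapped, so they can be set side by side between genes and are relative to all other RNA of a library. Changes are differences of log2(FPKM + 1) from a limma model over all 12511 genes with an FPKM of at least 1 in at least 2 libraries, with Benjamini-Hochberg adjustment over those genes, and the threshold for a change was an adjusted p of 0.05. That scale understates the change of low genes. Means are given ± SD over 2 libraries. At an FPKM of 1 or more there were 10623 to 11371 genes in each library, and the depth estimated from low values ranged from 0.78 to 1.06 of that of untreated HL60 replicate 1. The lines matched their labels: RUNX1T1 and CD34 had a listed value of 0 throughout HL60, against means of 19.1 ± 2.4 and 59.8 ± 1.9 FPKM in Kasumi-1 without drug, and the blood cell genes PTPRC, CD33, SPI1 and MPO were present in both. MYC went from 768 ± 26 to 29.8 ± 0.75 FPKM in HL60 and from 309 ± 1.5 to 201 ± 2.2 in Kasumi-1.

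CD82 stood at 28.4 and 28.3 FPKM in the untreated HL60 libraries and at 45.4 and 45.5 in the treated ones. In Kasumi-1 it stood at 3.18 and 3.45 FPKM without drug and at 14.4 and 16.3 with it. Treated libraries were thus above untreated ones in both lines, and even treated Kasumi-1 stayed below untreated HL60. The rise in HL60 was 1.6-fold, a log2 change of 0.66 with SE 0.07 (limma adjusted p = 0.000139). The stated reason for the choice names Kasumi-1 alone, but the members were chosen with earlier results of these data known. The HL60 p-values of members may therefore not be independent of the choice. In Kasumi-1 the ratio of means was 4.63 and the log2 change 1.92 (SE 0.07), or 1.88 within replicate 1 and 1.96 within replicate 2. In bulk RNA, more cells of a kind and more RNA per cell cannot be told apart, here and below. This was the largest rise among the 9126 genes with a mean of at least 5 FPKM in some group, short RNAs and repeated symbols set aside, and the 42nd largest among all 12511. The next in rank were CRIP1, a LIM domain protein, at 1.84 (SE 0.17), the histone gene HIST1H2BK at 1.55, MFAP4, a matrix protein, at 1.41, and SAT1, which acetylates polyamines, at 1.39. CRIP1 lies within its error of CD82. The same 4 genes moved by 2.54, 3.44, −0.57 and 2.57 in HL60, where CD82 ranked 2626th from the top.

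**Figure D1:**
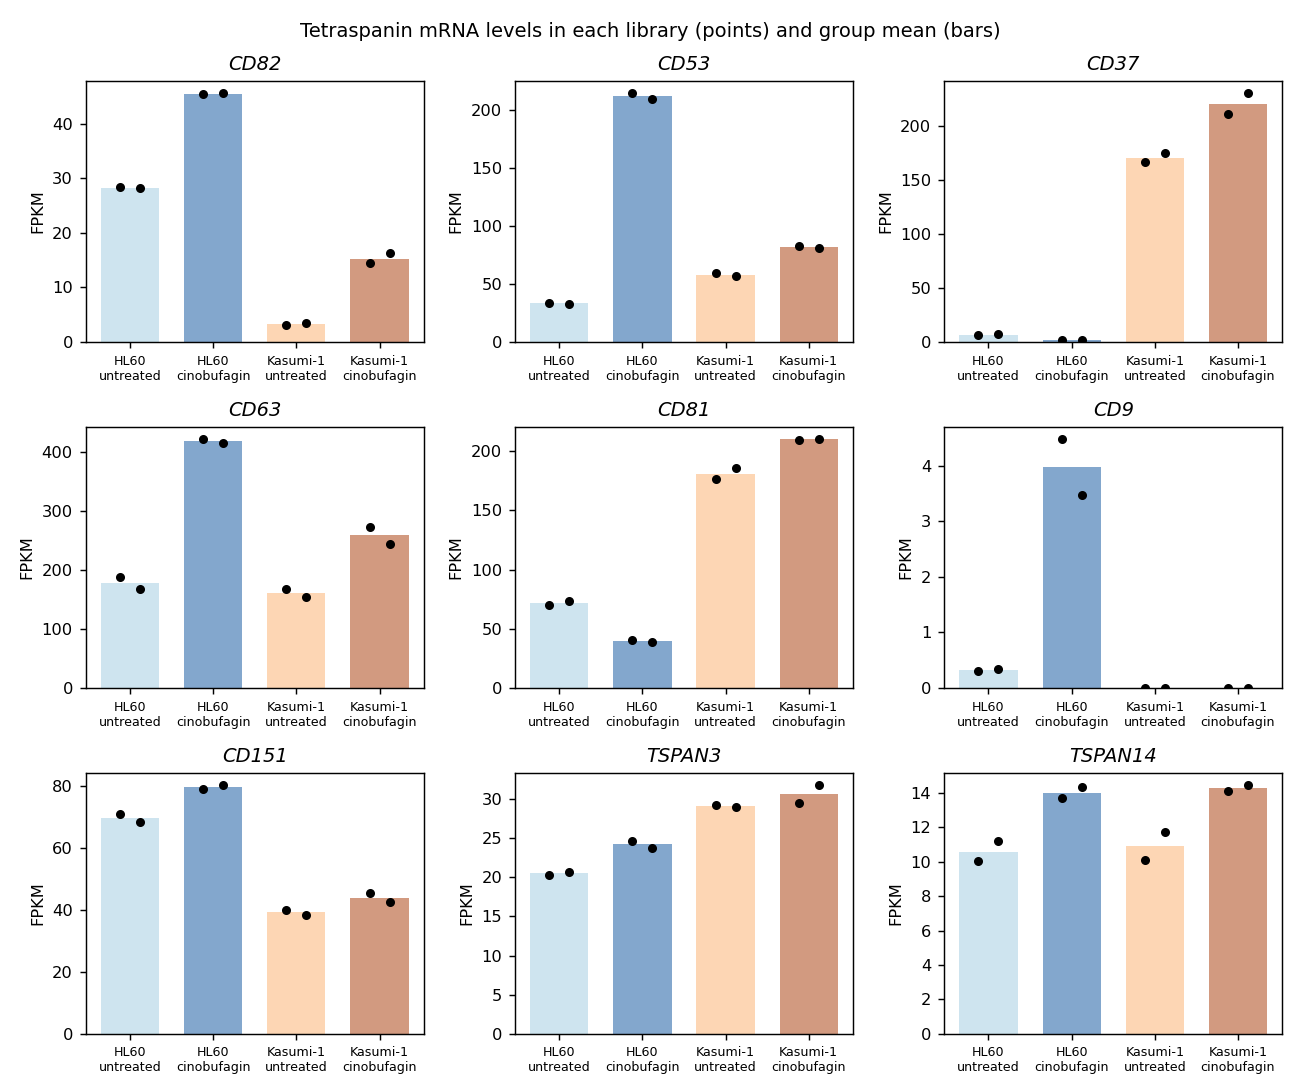
FPKM of each tetraspanin (vertical axes, linear and starting at 0, scaled per gene) in the 4 groups; points are the 2 libraries of a group and bars their mean. CD82 was higher with cinobufagin in both lines, and CD53 had the largest log2 change in HL60. CD37 and CD81 were lower with drug in HL60 but higher in Kasumi-1.

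The upstream sequences of CD82 and CD53 are shown because these members had the largest log2 changes with drug, CD82 in Kasumi-1 and CD53 in HL60. Both were higher with drug in each line. Promoter entries of RefSeq on GRCh38.p14 matched 5 of the 9 members. The CD82 stretch covers chr11:44565413-44565590 on the plus strand, 250 to 73 bases before the annotated start, and leaves out the part that overlaps an annotated exon. The CD53 stretch, the second of its entries, covers chr1:110872898-110873147 on the plus strand, the 250 bases before that start. Capitals mark matches, on either strand, to the GC box GGGCGG or to GAGGAA, the ETS core that PU.1 binds, and in these stretches no marked match overlaps another.
CD82: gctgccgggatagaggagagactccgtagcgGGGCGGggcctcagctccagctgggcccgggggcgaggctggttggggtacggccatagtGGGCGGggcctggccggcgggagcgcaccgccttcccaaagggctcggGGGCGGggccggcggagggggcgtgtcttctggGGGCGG
CD53: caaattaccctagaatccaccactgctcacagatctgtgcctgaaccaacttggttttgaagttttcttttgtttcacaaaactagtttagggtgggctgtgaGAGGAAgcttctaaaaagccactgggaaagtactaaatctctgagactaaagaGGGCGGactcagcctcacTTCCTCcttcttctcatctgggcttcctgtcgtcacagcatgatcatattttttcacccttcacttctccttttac

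The 2 stretches differ in make-up. The 250 bases before the CD82 start are 77.2% G and C and hold 4 GC boxes, all inside the printed part. Those before the second CD53 start, the printed ones, are 44.0% G and C and hold 1 GC box and 2 ETS cores. The window before the first CD53 start is 45.2% G and C, overlaps an annotated CD53 exon and holds neither motif, so the matches depend on the start taken. Of 35116 promoter windows of 250 bases, 42.6% hold a GC box and 23.6% the ETS core. The AP-1 site TGANTCA, the E-box CACGTG bound by MYC and MAX, the TATA box TATAAA and the NF-kB motif, found in 6.57%, 6.34%, 10.7% and 9.96% of windows, had no match in the CD82 window or in either CD53 window. These are letter matches, not measured binding.

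The leukocyte tetraspanins CD53 and CD37 moved in opposite directions in HL60, with the largest rise and the largest fall of the 8 members tested there. CD53, which associates with integrins and other leukocyte surface proteins, stood at 34.0 and 32.8 FPKM in untreated HL60 and at 214 and 210 in treated HL60. It rose 6.35-fold, a log2 change of 2.63 with SE 0.05 (limma adjusted p = 1.8e-07), and only 2.79% of the genes tested moved further in either direction. In Kasumi-1 it went from 59.7 and 56.7 to 83.3 and 81.2 FPKM, a log2 change of 0.49 (SE 0.05). Treated Kasumi-1 was far below treated HL60, although untreated Kasumi-1 was above untreated HL60.

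CD37, which is prominent on mature B cells and restrains integrin and immune receptor signalling, stood at 6.48 and 7.24 FPKM in untreated HL60 and at 1.57 and 2.02 in treated HL60. It fell to 0.262 of its untreated mean, a log2 change of −1.49 with SE 0.09 (limma adjusted p = 1.4e-05). In Kasumi-1 it stood at 167 and 175 FPKM without drug and at 212 and 231 with drug, a log2 change of 0.37 (SE 0.09). The lines thus differ in the direction of CD37 as well as in its level, with every treated library below the untreated ones in HL60 and above them in Kasumi-1. On the annotated genome the gene TEAD2 overlaps CD37 on the opposite strand. TEAD2 stood between 4.24 and 5.40 FPKM in Kasumi-1 and at no more than 0.0298 in HL60, and was lower in both treated Kasumi-1 libraries than in the untreated ones. Whether reads of this pair were kept apart by strand is not stated.

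Because CD37 and CD53 are also genes of lymphocytes, lymphoid markers were read in the same libraries. Of 6 B cell genes, MS4A1 and BLNK were listed at 0 in all 8 libraries. The summed FPKM of the list was 4.11 to 4.12 in untreated HL60, 0.505 to 0.949 in treated HL60, 14.5 to 15.3 in untreated Kasumi-1 and 6.71 to 10.9 in treated Kasumi-1, so it moved with CD37 in HL60 and against it in Kasumi-1, and its part in the fall of CD37 in HL60 was not tested. Of 8 T and NK cell genes, CD3G and GZMB were listed at 0 throughout. Their sum was 25.9 to 27.1 in untreated and 89.6 to 98.7 in treated HL60, and 2.23 to 3.28 and 2.72 to 2.83 in Kasumi-1. Only 1 of these genes, NKG7, reached an FPKM of 1 in HL60, and its part in the rise of CD53 was not tested.

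Among the exosome markers, CD63 rose and CD81 fell in HL60. CD63, the tetraspanin of lysosomes, granules and exosomes, stood at 188 and 168 FPKM in untreated HL60 and at 422 and 415 in treated HL60. This was a 2.35-fold rise, a log2 change of 1.23 with SE 0.08 (limma adjusted p = 1.78e-05). In Kasumi-1 it went from 167 and 154 to 273 and 245 FPKM, with a log2 change of 0.68 (SE 0.08). CD63 was therefore higher with drug in both lines, and it had the highest mean of the 9 members in both treated groups.

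CD81, a partner of integrins, stood at 70.1 and 73.3 FPKM in untreated HL60 and at 40.9 and 38.8 in treated HL60. It fell to 0.556 of its untreated mean, a log2 change of −0.83 with SE 0.05 (limma adjusted p = 1.32e-05). The Kasumi-1 libraries stood at 176 and 186 FPKM without drug and at 209 and 210 with drug, a log2 change of 0.21 (SE 0.05). As with CD37, the direction was opposite in the lines and no library broke it.

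CD9, which acts in cell fusion, adhesion and platelets, was near the lower end of detection. It stood at 0.302 and 0.343 FPKM in untreated HL60 and at 4.48 and 3.48 in treated HL60, and was listed at 0 in all 4 Kasumi-1 libraries. CD9 passed the filter on low values only through the treated HL60 libraries, so it had to differ. Its mean was 12.3-fold higher with drug, and its log2 change, given with no test, was 1.90 (SE 0.10), or 3.26 with a pseudocount of 0.1. Of 8 erythroid and megakaryocyte genes, HBB and PF4 were among those listed at 0 in all libraries. The summed FPKM of that list went from between 2.11 and 2.55 to between 1.14 and 1.17 in HL60. Only 1 gene of the list reached an FPKM of 1 in both untreated HL60 libraries, and none did in both treated ones. These sums are thus near the lower end of detection too, and their relation to the rise of CD9 was not tested.

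The remaining members changed little in HL60. TSPAN14, one of the tetraspanins that escort the protease ADAM10 to the cell surface, went from 10.1 and 11.2 to 13.7 and 14.4 FPKM in HL60, a log2 change of 0.37 with SE 0.08 (limma adjusted p = 0.00637). In Kasumi-1 it went from 10.1 and 11.7 to 14.1 and 14.5, with a log2 change of 0.36 (SE 0.08), beside 0.37 for CD37 and 0.21 for CD81. The changes in the 2 lines differed by −0.01 (SE 0.12), and no treated library overlapped the untreated ones in either. TSPAN3, which has been tied to self-renewal in myeloid leukaemia, went from 20.3 and 20.7 to 24.7 and 23.7 FPKM in HL60, a log2 change of 0.23 with SE 0.05 (limma adjusted p = 0.00719), and from 29.2 and 28.9 to 29.5 and 31.8 in Kasumi-1 (0.07, SE 0.05).

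CD151, which binds laminin-binding integrins tightly, went from 71.1 and 68.3 to 78.9 and 80.2 FPKM in HL60, a log2 change of 0.19 with SE 0.05 (limma adjusted p = 0.0151), and from 40.0 and 38.4 to 45.4 and 42.5 in Kasumi-1 (0.16, SE 0.05). Its call in HL60 was lost without untreated replicate 2 (limma adjusted p = 0.0852), without treated replicate 2 (0.0706) and with quantile normalization (0.116), and that of TSPAN3 with quantile normalization (0.0715). POLR2L, a subunit of RNA polymerases, overlaps CD151 on the opposite strand. It stood between 63.6 and 112 FPKM over the 8 libraries and rose in HL60 from 70.1 ± 9.2 to 106 ± 8.9. Whether strand was used in the quantification is not stated, so it is unknown whether reads of the pair were kept apart.

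Over the 8 members other than CD9, 6 rose and 2 fell in HL60. All genes tested were called higher in 36.0% and lower in 37.6% of cases there, 73.6% together, so a call by itself says little. The libraries of the groups did not overlap for any of the 8, as for 42.2% of all genes in the higher and 44.7% in the lower direction. The sizes of the changes separate the members better. Larger absolute changes than those of CD151, TSPAN3 and TSPAN14 were seen in 79.6%, 76.3% and 64.8% of all genes, and those of the others in 2.79% for CD53, 12.4% for CD37, 18.3% for CD63, 34.6% for CD81 and 43.8% for CD82. In Kasumi-1 all 8 were higher in both treated libraries than in both untreated ones, as were 25.6% of all genes. Nothing is read from that count, since the choice of members used that comparison.

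**Figure D2:**
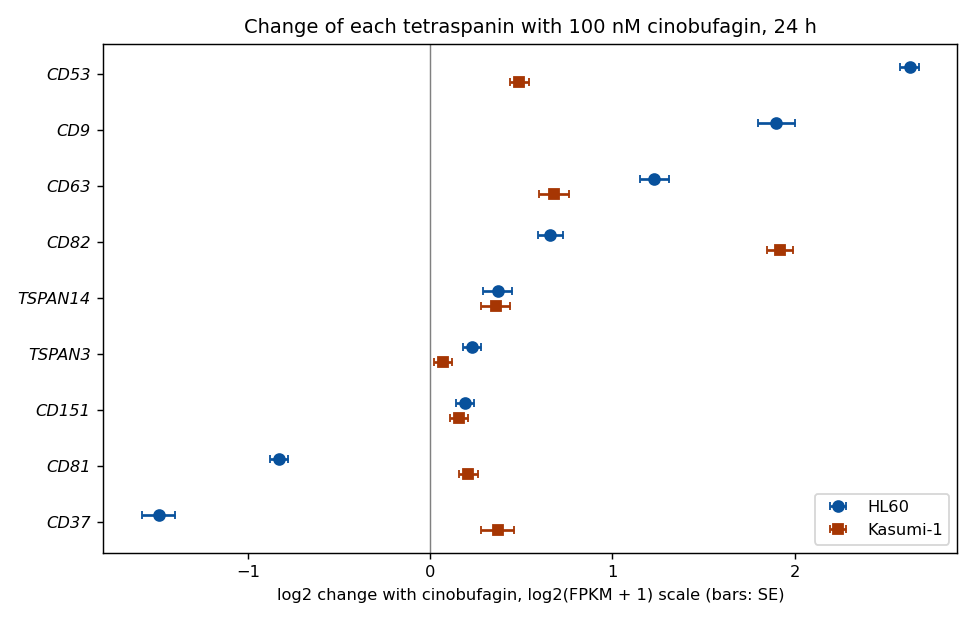
Change of each tetraspanin with cinobufagin (horizontal axis, log2(FPKM + 1) scale; circles HL60, squares Kasumi-1; bars are SE from the limma model over 8 libraries). The point of CD82 lies further right in Kasumi-1 (1.92) than in HL60 (0.66), as do those of CD37 (0.37 and −1.49) and CD81 (0.21 and −0.83), CD53 shows the reverse (0.49 and 2.63), and CD9 has no Kasumi-1 point because it was listed at 0 there.

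The difference between the changes (Kasumi-1 minus HL60) was 1.26 (SE 0.10) for CD82, 1.86 (SE 0.13) for CD37 and 1.04 (SE 0.07) for CD81. It was −2.14 (SE 0.07) for CD53, −0.55 (SE 0.12) for CD63, −0.15 (SE 0.07) for TSPAN3 and −0.03 (SE 0.07) for CD151. These differences contain the comparison the choice used and are given with no test.

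Before any drug, the order of the members by level differed between the 2 lines. In untreated HL60 the order from the highest mean was CD63, CD81, CD151, CD53, CD82, TSPAN3, TSPAN14, CD37 and CD9, and only CD81 (71.7 ± 2.3 FPKM) and CD151 (69.7 ± 1.9) overlapped in their libraries. In untreated Kasumi-1 it was CD81, CD37, CD63, CD53, CD151, TSPAN3, TSPAN14, CD82 and CD9, and only CD37 (171 ± 5.9) and CD63 (161 ± 9.1) overlapped. CD37 thus went from next to last in one line to the leading group of the other.

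Of the 7 members tested between untreated lines, 4 were higher in Kasumi-1, 1 was lower and 2 did not pass, where 35.9% of all genes were called higher and 33.8% lower, 69.7% together. Libraries of the lines overlapped for TSPAN14 alone among the 7, while 43.0% of all genes were higher and 41.5% lower without overlap. CD37 was 24.9-fold higher in Kasumi-1, a log2 difference of 4.45 (SE 0.09, limma adjusted p = 1.42e-07), and only 0.927% of genes differed more. CD81 was 2.53-fold higher (1.33, SE 0.05, limma adjusted p = 1.57e-06), CD53 1.74-fold (adjusted p = 1.22e-05) and TSPAN3 1.42-fold (adjusted p = 0.000208). CD151 stood in Kasumi-1 at 0.563 of its HL60 mean (limma adjusted p = 1.52e-05). CD63 (−0.14, SE 0.08, limma adjusted p = 0.162, or 0.023 with the replicate number as a block) and TSPAN14 (0.03, SE 0.08, adjusted p = 0.742) did not pass. CD82, at 0.117 of its HL60 mean, is given with no test, since its low untreated level enters the rise it was chosen for. The untreated libraries also serve in the drug comparisons, so these values are not independent of them.

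Treatment moved the order. In treated HL60, CD53 (212 ± 3.4 FPKM) stood second after CD63 (418 ± 4.7), CD82 (45.4 ± 0.1) stood above CD81 (39.9 ± 1.4), and CD37 (1.8 ± 0.32) came last, below CD9 (3.98 ± 0.71). No neighbours overlapped there. In treated Kasumi-1, CD63 (259 ± 20) stood above CD37 (221 ± 13) and CD81 (210 ± 0.66), and CD82 (15.3 ± 1.3) reached the level of TSPAN14 (14.3 ± 0.23), with which its libraries overlapped.

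The summed FPKM of all 33 human tetraspanin genes was 493 and 472 in untreated HL60 and 865 and 851 in treated HL60. It was 743 and 750 in untreated Kasumi-1 and 953 and 951 in treated Kasumi-1. The 9 members made up 86.8% of that sum in both untreated HL60 libraries and 97.8% and 97.9% in the treated ones. CD53 alone went from 6.90% and 6.93% to 24.8% and 24.6% of it in HL60 and CD81 from 14.2% and 15.5% to 4.73% and 4.57%. In Kasumi-1 the share of CD82 went from 0.428% and 0.460% to 1.51% and 1.71%, and the share of CD37 stayed between 22.2% and 24.2%. CD82 was therefore a small part of the Kasumi-1 tetraspanin mRNA even after its rise. FPKM is relative within a library, so these sums do not show whether the total mRNA of a cell changed.

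**Figure D3:**
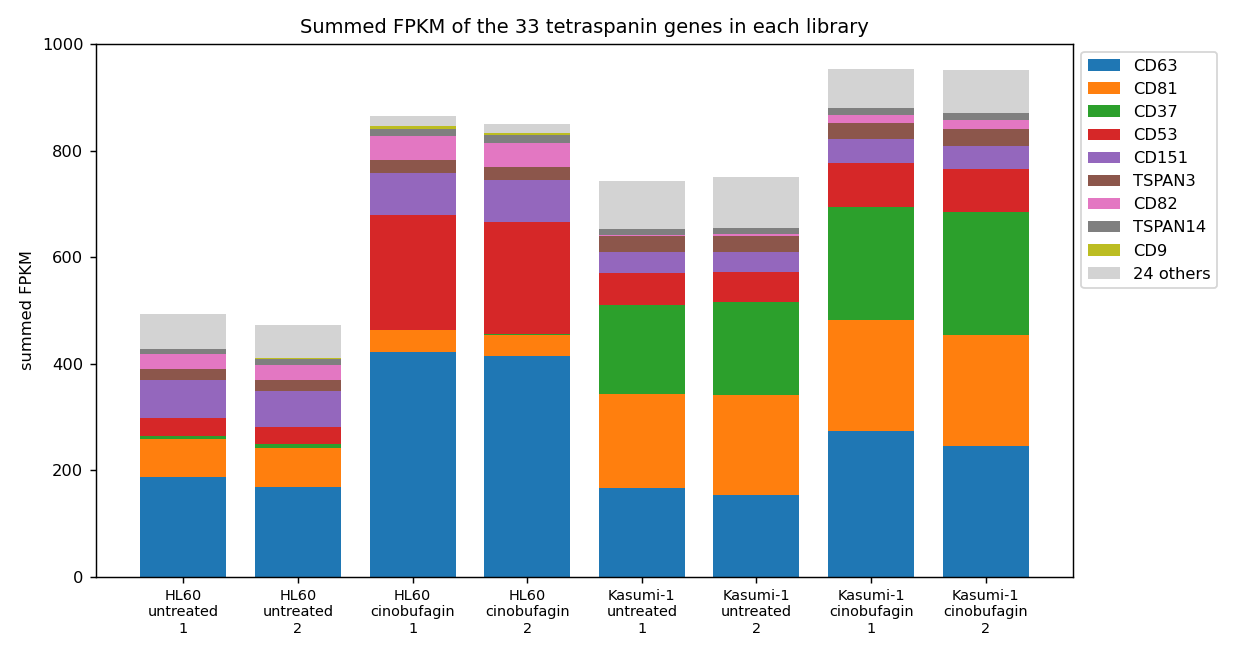
Summed FPKM of the 33 tetraspanin genes in each of the 8 libraries (vertical axis, linear from 0), with a colour for each of the 9 members and light grey for the 24 others. CD63 and CD53 fill most of the treated HL60 bars, while the CD37 and CD81 bands are wider in Kasumi-1 than in HL60.

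Of the 24 other tetraspanins, 6 were listed at 0 in all libraries and 11 passed the filter on low values. In HL60 1 of these rose and 6 fell, where 36.0% and 37.6% of all genes did, with a median log2 change of −0.36 against −0.01 over all genes. Among the falls, TSPAN13 (mean 0.42 to 0.102 FPKM) and TSPAN33 (0.867 to 0.444) lay below an FPKM of 1 in every HL60 library. The median equals the change of TSPAN13, so the count and the median rest in part on low values. TSPAN32, a tetraspanin of blood cells, stood at 44.8 and 42.7 FPKM in untreated HL60 and at 4.34 and 3.02 in treated HL60, a log2 change of −3.27 with SE 0.14 (limma adjusted p = 2.73e-06), and at no more than 0.136 in Kasumi-1. TSPAN31 fell by 0.51 (limma adjusted p = 0.00512), and TSPAN2, at 3.97 ± 0.57 FPKM in treated HL60, was the 1 that rose. In Kasumi-1, where 10.1% of all genes rose and 16.2% fell, 26.3% together, 2 of 10 fell. They were TSPAN7, at 44.4 and 46.6 FPKM without and 31.5 and 35.9 with drug and listed at 0 in HL60, and TSPAN5 at −0.75 (limma adjusted p = 0.00225). The eleventh, TSPAN15, passed the filter only through untreated Kasumi-1 and is given with no test, at 1.70 and 1.69 FPKM without and 0.380 and 0.642 with drug. TSPAN5 and TSPAN15 belong to the tetraspanins that bind ADAM10, as does TSPAN14, which was higher with drug in Kasumi-1.

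Genes that work with tetraspanins were read from lists of partners, substrates and transport factors. These lists, too, were chosen with earlier results of these data known, so their counts are a description. Like CD9, some genes would not have passed the filter on low values without 1 of the compared groups, so the filter favoured a difference. These, 592 of 12511 in HL60 and 266 in Kasumi-1, are left out of the counts and medians of lists. Of the remaining genes 35.0% rose and 38.0% fell in HL60, and 10.1% and 16% in Kasumi-1. Of 12 integrin genes, 9 rose and 2 fell in HL60 against those 35.0% and 38.0%, with a median of 0.78. ITGAX rose by 1.81, ITGAM by 1.10 and ITGA5 by 1.08, and ITGB1, the beta chain that pairs with most tetraspanin-bound alpha chains, went from 40.0 ± 0.23 to 68.4 ± 1.8 FPKM (limma adjusted p = 1.09e-05). ITGB2, the beta chain of leukocyte integrins, rose by 0.80. ITGA4, a partner of CD53, CD81 and CD82, fell from 72.2 ± 3.3 to 24.3 ± 0.28 FPKM (−1.54, limma adjusted p = 2.15e-05). In Kasumi-1 3 of 13 rose, ITGA5, ITGAL and ITGB1, and 1 fell, ITGAX, against 10.1% and 16% of all genes, while ITGA4 stood at 46.9 ± 4.8 and 47.1 ± 6.5. ITGAX stood there at 0.390 FPKM in both untreated libraries and at 0.191 and 0.203 in the treated ones. Its log2 change of −0.22 (limma adjusted p = 0.0488) thus lies among values below the FPKM of 1 used in the filter.

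Of 24 other partners, 11 rose and 9 fell in HL60 (45.8% and 37.5%), near the 35.0% and 38.0% of all genes, with a median of 0.05. CLEC7A, the fungal receptor dectin-1 that CD37 binds, passed the filter only through treated HL60 and is given with no test, at 1.34 and 0.681 FPKM without and 46.1 and 38.8 with drug. ICAM1, an integrin ligand, and MMP14, a membrane protease, rose by 3.45 and 2.62. TFRC, the transferrin receptor, fell from 282 ± 33 to 45.2 ± 2.2 FPKM, CD4 from 80.7 ± 2.4 to 17.9 ± 1.6 and IFITM2, an antiviral membrane protein, from 132 to 42.4. IGSF8, which binds CD9 and CD81 directly, fell from 4.49 ± 0.16 to 0.626 ± 0.1 (limma adjusted p = 7.99e-06), and PTGFRN, its relative, did not exceed a group mean of 0.388 and was not tested. Kasumi-1 had 9 rises and 2 falls among 25, or 36.0% and 8.0%, against 10.1% and 16% of all genes.

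In the list of ADAM10 and proteins it sheds, 6 of 10 rose and 2 fell in HL60 against 35.0% and 38.0% of all genes (median 0.52). ADAM10, the client of TSPAN14, rose from 17.6 ± 0.4 to 27.9 ± 0.56 FPKM (0.64, limma adjusted p = 0.000792), and the related ADAM17 from 10.1 ± 0.75 to 48.8 ± 1.2 (2.17, limma adjusted p = 8.06e-07). CD44, a hyaluronan receptor, rose by 1.88 and NOTCH2 by 0.88, and APP fell by 0.40. In Kasumi-1 ADAM10 stood at 30.3 ± 3.2 without and 29.2 ± 3.1 with drug. Of the list, 3 of 12 rose there and 1 fell, or 25.0% and 8.33%, against 10.1% and 16% of all genes.

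Enzymes that add or remove the palmitate on tetraspanins, and factors of their turnover, rose in 9 of 15 cases and fell in 3 in HL60, against 35.0% and 38.0% of all genes (median 0.29). The palmitoyl transferase genes ZDHHC20 and ZDHHC3 rose by 0.98 and 0.81, the thioesterase LYPLA2 by 0.77, and ZDHHC4 and ZDHHC6 fell by 0.81 and 0.39. In Kasumi-1 the median was −0.08, and ZDHHC6 fell by 0.53 (limma adjusted p = 0.00249).

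Of 38 exosome genes, 26 rose and 6 fell in HL60 against 35.0% and 38.0% of all genes, with a median of 0.54. SDCBP encodes syntenin, which binds CD63 and links syndecans to exosome budding. It stood at 44.3 and 51.5 FPKM in untreated HL60 and at 278 and 291 in treated HL60, a log2 change of 2.55 with SE 0.12 (limma adjusted p = 3.52e-06). In Kasumi-1 it stood at 26.4 and 32.0 without and at 39.0 and 44.4 with drug (0.50, limma adjusted p = 0.0244). SDCBP and CD63 were thus higher with drug in both lines. The difference between the changes of SDCBP (Kasumi-1 minus HL60) was −2.05 (SE 0.16), given with no test. The membrane scaffold FLOT1 rose by 4.05 in HL60, and ARRDC1, CHMP6 and VPS36 fell by 1.52, 0.80 and 0.76. The syndecan SDC4, at 0.185 and 0.225 FPKM without and 7.85 and 8.31 with drug in HL60, passed the filter only through the treated libraries and has no test. In Kasumi-1 8 of 39 rose and 3 fell, or 20.5% and 7.69%, against 10.1% and 16% of all genes.

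For the membrane of lysosomes and granules, the compartment of CD63, 11 of 13 genes rose in HL60 and 2 fell, against 35.0% and 38.0% of all genes (median 0.57). SLC11A1, a metal transporter of phagosomes that passed the filter only through treated HL60, stood at 0.428 and 0.372 FPKM without and 6.81 and 6.14 with drug and has no test. The calcium channel MCOLN1 rose by 2.1 and OSTM1 by 1.61, and TMEM192 fell by 0.82. In Kasumi-1 4 of 14 rose, CD68, CLCN7, LAPTM5 and SCARB2, against 10.1% of all genes.

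**Figure D4:**
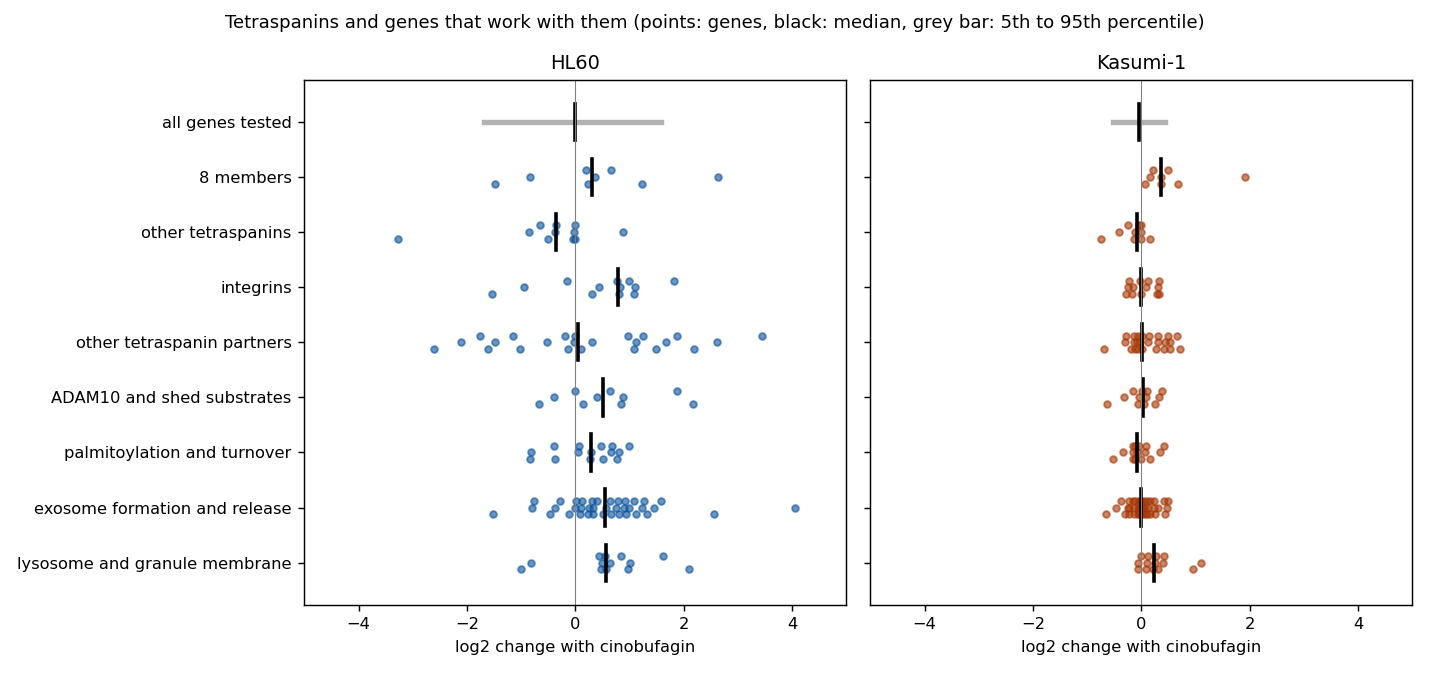
Log2 change with cinobufagin (horizontal axes) of each tested gene (points) in lists of tetraspanins and their partners, without genes that passed the filter through 1 of the compared groups alone, for HL60 on the left and Kasumi-1 on the right; black lines are medians and the grey bar spans the 5th to 95th percentile of all genes tested. In HL60 the medians of integrins (0.78) and of lysosome and granule membrane genes (0.57) lie above that of all genes (−0.01), that of other tetraspanins (−0.36) below it, and in Kasumi-1 points lie closer to 0.

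The genes whose pattern over the 8 libraries was most like that of CD82 were found by Pearson's r of log2(FPKM + 1) among 9125 genes. They were DGKD, a diacylglycerol kinase (r = 0.985), ARHGEF40, a guanine nucleotide exchange factor (0.983), SNX20, a sorting nexin (0.983), SLC35B2, a Golgi transporter of the sulfate donor (0.981), and RGS18, a G protein regulator of blood cells (0.974). Each was higher in HL60 than in Kasumi-1 and had higher values with drug within each line, and none moved as far as CD82: the largest Kasumi-1 change among them was that of ARHGEF40, from 4.8 ± 0.25 to 10.3 ± 0.17 FPKM. The change of SLC35B2 in HL60, 0.06 with SE 0.04, did not pass the threshold (limma adjusted p = 0.214). Among the members, CD151 was most like CD82 (r = 0.91), and CD37 and CD81 had a negative r with it (−0.82 and −0.80). Within Kasumi-1, though, CD37 and CD81 were higher with drug, as CD82 was. The 8 libraries fall into 4 groups that share line and treatment, so these values describe the order of the groups.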

How the data were processed

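The data are 1 table of FPKM values that the authors deposited, with 1 column for each of 8 libraries; all 8 columns were used. Per the labels' protocols, total RNA went through a stranded poly(A) kit (TruSeq Stranded mRNA). The submitters' processing notes list Cufflinks 2.2.1, HISAT2 2.1.0, bcl2fastq 2.20.0 and the build hg19. For annotation, strand setting and filters: not given in the sources used here. Gene lengths were not used here, so no reads were recovered, no count model was run and no counting interval is given.

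From these values log2(FPKM + 1) was fitted in limma 3.58.1 (R 4.3.3), with 1 mean per group, an intensity trend and 4 residual degrees of freedom, and tested on simulated data. A permutation of 2 against 2 libraries cannot go below p = 0.33 and was not used. The members and gene lists were chosen with earlier results of these data known. Named list genes are up to 3 per direction with the largest HL60 change among called genes with a mean of at least 5 FPKM, plus fixed partners (ADAM10, IGSF8, PTGFRN, SDCBP, ITGA4, ITGB1 and ITGB2; 1 more is not reported here); TSPAN2, TSPAN5, TSPAN7 and TSPAN15, and the called genes of short lists in Kasumi-1, were named after their values were seen. Of the list symbols, 2 had no row. Overlapping genes were read from GENCODE 29 and promoters from RefSeq, both on GRCh38. Among 8 epithelial and fibroblast genes the summed FPKM was at most 0.164 in HL60 and 72.7 to 78.5 in Kasumi-1, all but a little from EPCAM.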

Additional observations from a re-analysis of the deposited data

Results flagged for a closer look

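CD37 and CD81 moved in opposite directions in the 2 lines: both treated libraries were below both untreated ones in HL60 and above both in Kasumi-1. Of all genes tested, 44.7% were lower without overlap in HL60 and 25.6% higher without overlap in Kasumi-1. The share of genes that did both was not counted, so whether this pattern is unusual is unknown. The difference between the log2 changes, Kasumi-1 minus HL60, was 1.86 for CD37 and 1.04 for CD81. The differences were not tested, since they contain the comparison on which the genes were chosen. Over all alternatives run they lay between 1.66 and 2.25 for CD37 and between 1.00 and 1.14 for CD81.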

How the results depend on the processing

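Alternatives were median-ratio rescaling, quantile normalization, a replicate block, each library left out, each line fitted alone a pseudocount of 0.1, all genes kept, an FPKM minimum of 5 and, for HL60, no intensity trend. The 8 members other than CD9 kept their direction in HL60 under each of these, and 6 of them kept their call; the exceptions, CD151 and TSPAN3, are given above. The log2 change of CD82 in Kasumi-1 moved from 1.92 to 2.18 with a pseudocount of 0.1 and to 2.1 with quantile normalization; the first follows from the smaller constant added to a low level, and for the second the cause was not tested. TSPAN14, at 0.03 between untreated lines, changed sign without untreated HL60 replicate 1 (−0.04) and without untreated Kasumi-1 replicate 2 (−0.06), reached 0.13 at most, and was called in none of the alternatives. Over all genes, 1266 rises and 2026 falls in Kasumi-1 became 634 to 735 and 987 to 1332 with 1 Kasumi-1 library left out, at most 1029 and 1727 with 1 HL60 library left out, and 683 and 1152 with Kasumi-1 fitted alone, where fewer libraries enter. Rises were 38.5% of the Kasumi-1 calls, 51.7% after median-ratio rescaling and 48.3% after quantile normalization. Same-numbered libraries deviated together in each of the 6 pairs of groups (Pearson's r of deviations from the group mean 0.13 to 0.33 across 12511 genes, 0.27 to 0.48 across 11520 without short RNAs and repeated symbols); the labels do not say what a number shares. With the replicate number as a block there were 4794 rises and 4993 falls in HL60 and 1867 and 2882 in Kasumi-1, the 8 members had 6 rises and 2 falls in HL60 as without it, and CD63 was called lower in untreated Kasumi-1 (−0.14, limma adjusted p = 0.023). Without counts, the precision of low values such as those of CD9 is unknown.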
